A study of Mus musculus with 6 samples.

Results

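To measure how much RNA of B-cell genes the sorted Treg libraries held, and whether it differed after induced deletion of Zfp335, 9 genes that define B cells were examined: Cd79a, Cd79b, Ms4a1, Pax5, Ebf1, Cr2, Fcer2a, Blk and Cd22. They were taken by symbol, without immunoglobulin genes, and each matched 1 of the 32285 rows of the count table. CD4+CD25+ cells were sorted from the spleens of C57BL/6 mice for bulk RNA-seq, with 3 WT and 3 KO libraries. The KO mice were ERCre Zfp335 fl/fl mice, in which a Cre recombinase fused to a modified estrogen receptor deletes Zfp335 once tamoxifen is given. The study's methods describe the WT mice as ERCre mice without floxed Zfp335, whereas the sample labels call them wild-type littermates. By the same methods all mice were 6 weeks old, were given tamoxifen in 3 injections of 100 μL each (10 mg/mL), and were killed on day 7. The labels do not mention tamoxifen, and the promoter of the Cre transgene and any pooling of animals are not given in the sources used here. The labels do not state that the libraries of a group came from separate animals, so p values measure the spread between these libraries.

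B cells recognize antigen through a surface immunoglobulin that cannot signal on its own. Cd79a and Cd79b form the signaling pair beneath it, Src-family kinases such as Blk start the signal, and coreceptors raise or damp it. Pax5 and Ebf1 are the transcription factors that set and keep B-cell identity, and Ms4a1 (CD20), Cr2 (CD21), Fcer2a (CD23) and Cd22 are surface proteins of B cells. The spleen is rich in B cells, and a CD4+CD25+ sort is meant to leave them behind.

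The libraries held between 133283969 and 209041812 counts. Levels are given as CPM, the counts of a gene scaled to a common library size after TMM correction. Zfp335 lay between 115.2 and 124.4 CPM in WT and between 14.3 and 15.1 CPM in KO libraries, which matches the labels. Xist, the RNA of the inactive X chromosome, lay at 0.187 to 0.424 CPM in WT and 123.9 to 144.7 CPM in KO. It parted the same libraries as the genotype. A difference tied to Xist, such as one of sex, therefore cannot be told apart from the deletion of Zfp335 in this design. Defining T and Treg cell genes were high in all 6 libraries, with Foxp3 at 1136 ± 17.4 CPM in WT and at 1052 ± 9.24 CPM in the KO group (SD, n = 3 per group, log2 fold change -0.11, adjusted p = 0.0163 in edgeR). The summed level of 7 T and Treg genes was 3600.1 to 3636 CPM in WT and 3668 to 3725 CPM in KO, and of these genes Ctla4 was higher in KO (410.3 to 645.3 CPM, log2 fold change 0.65, adjusted p = 9.56e-09 in edgeR). Foxp3 and Il2ra (-0.15, adjusted p = 0.00658 in edgeR) were lower and the other 4 genes were not called.

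RNA of all 9 B-cell genes was counted in every library, and all 9 were lower in KO than in WT at an adjusted p under 0.05 by edgeR's quasi-likelihood test. Across the 17307 genes tested, 12.1% were lower by this call and 24.1% were called in either direction. The study's methods give fold and p cutoffs for DESeq2 on Tregs of other mice, Foxp3Cre and Foxp3Cre Zfp335 fl/fl. Applied here to the edgeR values, these cutoffs called 8 of the 9 lower, against 4.37% of all genes. For each of the 9 genes the highest KO library was below the lowest WT library, a pattern found in this direction for 19.1% of the genes tested. The median log2 fold change of the 9 genes was -1.67, beside -0.0042 over all genes tested, and 1.72% of the tested genes had a log2 fold change at or below that median. Summed over the 9 genes, the level was 70.6, 65.1 and 68.8 CPM in WT replicates 1, 2 and 3 and 29.8, 31.3 and 30.0 CPM in KO replicates 1, 2 and 3. The KO mean was thus 44.6% of the WT mean, and the difference was larger than the spread within groups (68.2 ± 2.83 against 30.4 ± 0.803 CPM, SD, n = 3 per group). In bulk RNA, fewer B cells, less of these RNAs per B cell and less of them from any other source cannot be told apart. All 9 genes passed the filter on low counts, and the lowest count of any of them in any library was 69, for Ebf1 in KO replicate 3.

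**Figure D1:**
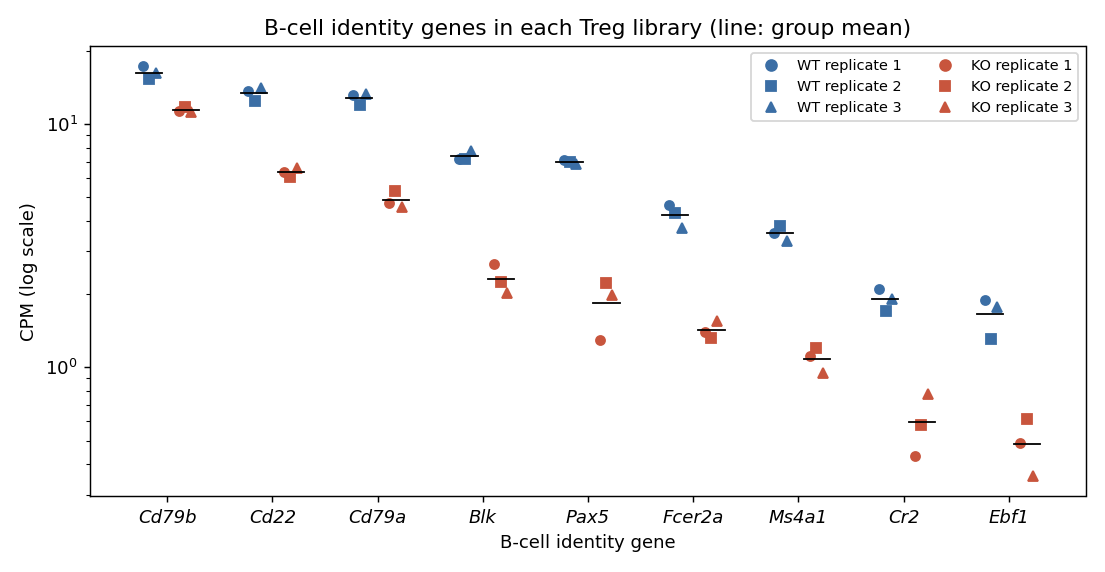
Level of the 9 B-cell identity genes in each library, in CPM on a log axis, with WT in blue, KO in red, a symbol for each replicate and a line at the group mean. In every gene the 3 KO libraries lie below the 3 WT libraries, with the smallest gap in Cd79b (KO mean 11.4 against WT mean 16.3 CPM).

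Both genes of the signaling pair of the B-cell receptor fell, Cd79a to 38.1% and Cd79b to 70.3% of its WT mean. Cd79a lies on the plus strand of chromosome 7 of GRCm38 from 24897381 to 24902197. It was at 13.2, 11.9 and 13.2 CPM in the WT libraries and at 4.73, 5.33 and 4.55 CPM in the KO libraries. All WT libraries were far above all KO libraries, and the log2 fold change was -1.39 ± 0.081 (SE, adjusted p = 6.03e-08 in edgeR). Cd79b, on the minus strand of chromosome 11 from 106311341 to 106314762, was at 17.3, 15.3 and 16.2 CPM in WT and at 11.4, 11.7 and 11.2 CPM in KO. The groups did not overlap here either, but the log2 fold change was only -0.51 ± 0.063 (SE, adjusted p = 6.01e-05 in edgeR). This was the smallest decrease of the 9 genes, and it misses the cutoff of 1.5-fold in the study's methods. Of the 50-base stretches of Cd79a transcripts, 8.31% also occur in the transcript of the gene Gm32220, and reads from these stretches could come from either gene. Cd79b shares none.

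The promoters of 6 of the 9 genes were found in the RefSeq promoter windows of GRCm38.p6, which run from 250 bases before to 50 bases after a transcription start. They are Cd79a, Pax5, Ebf1, Cr2, Fcer2a and Cd22, with 9 windows in all. Cd79b, Ms4a1 and Blk had no entry. The windows of Cd79a and Cd22 are shown as those of the receptor's signaling chain and of its inhibitory coreceptor. The RefSeq start used for Cd22 lies inside the GENCODE gene span given for Cd22 below, downstream of its 5′ end. Capitals mark a match to the palindromic motif of Ebf-type factors, TCCCNNGGGA.

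Cd79a, chr7:24897247-24897546, plus strand: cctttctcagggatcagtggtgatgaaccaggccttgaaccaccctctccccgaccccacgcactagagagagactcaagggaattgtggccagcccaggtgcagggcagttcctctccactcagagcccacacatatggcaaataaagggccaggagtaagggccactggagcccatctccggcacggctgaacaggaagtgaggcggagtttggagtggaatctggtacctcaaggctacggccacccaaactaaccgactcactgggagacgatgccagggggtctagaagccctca
Cd22, chr7:30878979-30879278, minus strand: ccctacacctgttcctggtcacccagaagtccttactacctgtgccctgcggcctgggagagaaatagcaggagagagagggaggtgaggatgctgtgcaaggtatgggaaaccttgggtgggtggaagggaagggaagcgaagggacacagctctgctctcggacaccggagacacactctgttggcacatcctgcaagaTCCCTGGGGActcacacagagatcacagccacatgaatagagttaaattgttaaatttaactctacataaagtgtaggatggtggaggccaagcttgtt

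The Cd22 window held an exact match to this motif, beginning 49 bases before the start, and the Cd79a window held no exact match. The motif was present in 1 of the 9 windows of these genes and in 0.904% of all 32851 promoter windows. Its shorter core CCCNNGGG, which lies within it, was found in the same single window and in 13.7% of all windows. The octamer motif ATGCAAAT and the PU.1-type motif GAGGAAGT, searched on both strands, were in none of the 9 windows and in 1.74% and 3.2% of all windows. Only exact matches to these letters were searched, so a window without a match may still hold a site that differs from the motif. Such matches describe the letters of the windows and say nothing of factors bound there.

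Both transcription factors of B-cell identity fell, Pax5 to 26.2% and Ebf1 to 29.3% of the WT mean. Pax5, which keeps B cells from taking other fates, lies on the minus strand of chromosome 4 from 44524757 to 44710487. It was at 7.11, 6.98 and 6.85 CPM in WT and at 1.30, 2.22 and 1.98 CPM in KO. The WT libraries were nearly equal, KO replicate 1 was the lowest, and the log2 fold change of -1.92 ± 0.133 (SE, adjusted p = 3.00e-07 in edgeR) was the largest decrease of the 9. With this replicate left out it was -1.73. Ebf1, which acts with Pax5 and earlier in the lineage, lies on the plus strand of chromosome 11 from 44617317 to 45008091. It was the lowest of the 9 in CPM, at 1.90, 1.31 and 1.77 CPM in WT and 0.488, 0.612 and 0.358 CPM in KO. Its log2 fold change was -1.75 ± 0.236 (SE, adjusted p = 0.000131 in edgeR) with the widest error of the 9. Of the Pax5 stretches 7.02% are shared with a pair of genes that overlap it on the other strand, Gm12462 and 5730488B01Rik. Gm12462 had no count in any library, and 5730488B01Rik was not among the counted genes under that name.

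Among the surface proteins, Ms4a1 fell to 30.5%, Cr2 to 31.2%, Fcer2a to 33.6% and Cd22 to 47.4% of the WT mean. Ms4a1 encodes CD20, a membrane protein of all mature B cells, on the minus strand of chromosome 19 from 11249675 to 11266241. It was at 3.57, 3.82 and 3.29 CPM in WT and at 1.11, 1.20 and 0.945 CPM in KO, a log2 fold change of -1.72 ± 0.138 (SE, adjusted p = 1.15e-06 in edgeR). No KO library came near the WT libraries. Cr2, a complement receptor that is highest on marginal zone B cells, lies on the minus strand of chromosome 1 from 195136811 to 195176716. It was at 2.11, 1.71 and 1.90 CPM in WT and 0.432, 0.579 and 0.774 CPM in KO, with a log2 fold change of -1.67 ± 0.205 (SE, adjusted p = 5.68e-05 in edgeR). Fcer2a, the low-affinity IgE receptor of follicular B cells, on the minus strand of chromosome 8 from 3681737 to 3694175, was at 4.65, 4.33 and 3.75 CPM in WT and 1.40, 1.32 and 1.56 CPM in KO. Its log2 fold change was -1.59 ± 0.130 (SE, adjusted p = 1.39e-06 in edgeR), and its 95% confidence interval of -1.87 to -1.31 overlapped that of Cr2, -2.11 to -1.23. The difference between these decreases of a marginal zone and a follicular gene was not tested.

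Cd22, an inhibitory coreceptor that binds sialic acid and damps the B-cell receptor signal, lies on the minus strand of chromosome 7 from 30865402 to 30880342. It was at 13.6, 12.5 and 14.0 CPM in WT and at 6.37, 6.07 and 6.58 CPM in KO. Replicates were tight in both groups, and the log2 fold change was -1.07 ± 0.072 (SE, adjusted p = 2.25e-07 in edgeR). Of its stretches, 7.84% occur in transcripts of other genes. Gm29439, which overlaps its exons on the other strand, had no count in any library. Blk, a Src-family kinase of the B-cell receptor pathway, lies on the minus strand of chromosome 14 from 63372836 to 63417037. It was at 7.21, 7.18 and 7.74 CPM in WT and at 2.66, 2.25 and 2.03 CPM in KO. Its log2 fold change was -1.67 ± 0.104 (SE, adjusted p = 1.05e-07 in edgeR), in the middle of the 9 genes, and it shares no stretch with other genes. For each of the 9 genes the exact permutation test over the 6 libraries gave p = 0.1 (two-sided), and a design of 3 against 3 allows no smaller value.

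**Figure D2:**
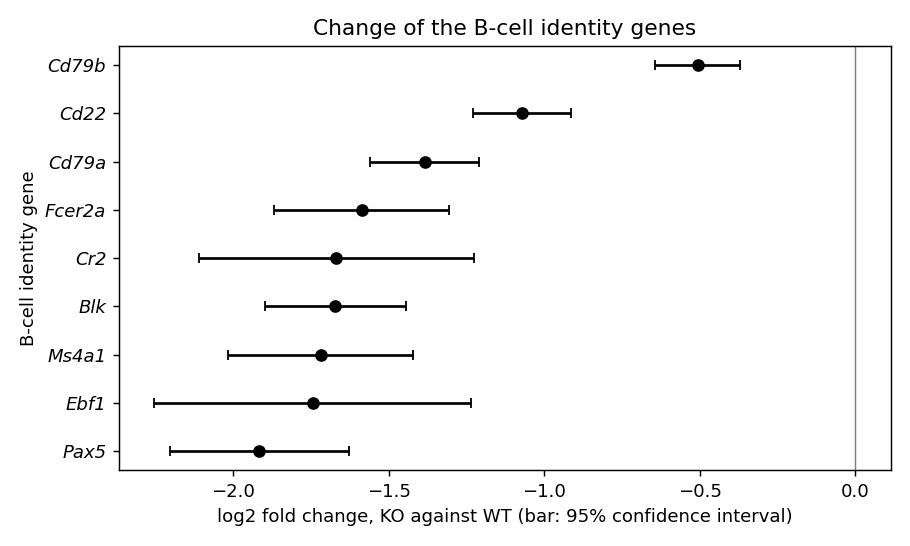
Log2 fold change of KO against WT for the 9 B-cell identity genes, with bars for the 95% confidence interval of edgeR's quasi-likelihood fit. The intervals of 7 genes end at or below -1.21, and those of Cd22 (-1.23 to -0.92) and Cd79b (-0.64 to -0.37) reach higher. The interval of Cd22 overlaps those of Cd79a and Cr2.

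The estimated decreases of the 9 genes were thus unequal. The decrease was between 2.61-fold and 3.77-fold in 7 genes, 2.10-fold in Cd22 (95% confidence interval 1.89 to 2.34) and 1.42-fold in Cd79b (1.29 to 1.56). The interval of Cd79b did not overlap that of any of the other 8 genes. That of Cd22 overlapped those of Cd79a (2.31 to 2.95) and, narrowly, Cr2 (2.34 to 4.32). The 3 genes with the highest CPM in WT, Cd79b, Cd22 and Cd79a, showed the 3 smallest decreases in log2 fold change. In CPM the order was another one, since Cd79a lost 7.92 CPM, Cd22 7.03, Pax5 5.15, Blk 5.06 and Cd79b 4.84.

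To compare the genes free of library scaling, the counts of each were divided by the counts of Cd79a in the same library. The ratio of Cd79b to Cd79a was 1.31, 1.28 and 1.23 in WT and 2.40, 2.20 and 2.47 in KO, so that each KO library was above each WT library. The ratio of Cd22 to Cd79a also parted the groups, at 1.03, 1.04 and 1.06 in WT and 1.35, 1.14 and 1.45 in KO. In the opposite direction, the ratio of Pax5 was 0.540, 0.585 and 0.517 in WT and 0.274, 0.416 and 0.435 in KO, and that of Ms4a1 was 0.249 to 0.320 in WT and 0.208 to 0.235 in KO. The log2 difference for Pax5, -0.57, was -0.36 without KO replicate 1. The ratios of Ebf1, Cr2, Fcer2a and Blk overlapped between the groups. The 4 ratios without overlap had the smallest exact permutation p this design allows (two-sided p = 0.1, and 0.2 when adjusted over the 8 ratios), so none passed 0.05. As a background, the ratio to Cd79a parted the groups for 88.5% of all other genes tested.

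**Figure D3:**
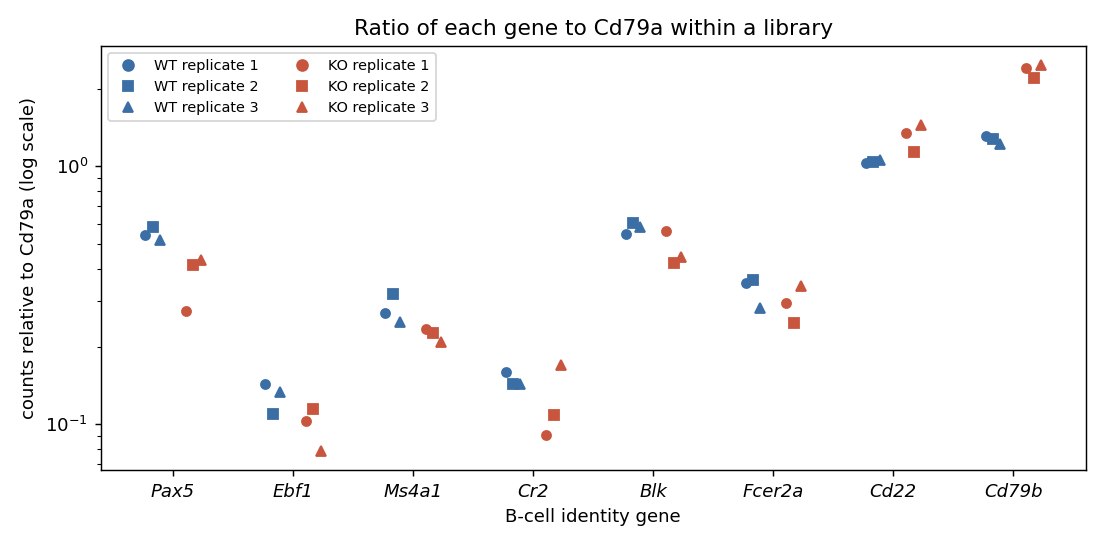
Counts of 8 B-cell identity genes relative to Cd79a within each library, on a log axis, with WT in blue, KO in red and a symbol for each replicate. Cd79b stands apart with ratios of 2.20 to 2.47 in KO against 1.23 to 1.31 in WT, while Cr2, Fcer2a, Ebf1 and Blk overlap between the groups.

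Levels of different genes were compared per kilobase of annotated exon sequence. The length of a gene joined the exons of all its annotated transcripts, so it can exceed that of any single transcript. The order and the shares per kb depend on these lengths. In WT the order from the top was Cd79b with 11.4 ± 0.682 CPM per kb, Cd79a with 8.78 ± 0.503, Blk with 2.73 ± 0.117, Cd22 with 2.65 ± 0.159, Fcer2a with 1.37 ± 0.148, Pax5 with 0.789 ± 0.015, Ms4a1 with 0.575 ± 0.042, Cr2 with 0.235 ± 0.024 and Ebf1 with 0.170 ± 0.032 CPM per kb (SD, n = 3). Only Blk and Cd22 were neighbors in this order whose libraries overlapped in WT. In KO the order of Blk and Cd22 was exchanged, with 0.858 ± 0.119 and 1.26 ± 0.051 CPM per kb, and there the neighbors Pax5 and Ms4a1 and the neighbors Cr2 and Ebf1 overlapped. Set against Cd3e, the T-cell receptor subunit gene, Cd79a was at 11.7% of its CPM per kb in WT and at 4.59% in KO. Cd79b was at 15.2% and 11.0%, and Ebf1 at 0.227% and 0.068%. Cd3e itself was not called different (log2 fold change -0.040, edgeR adjusted p = 0.377). The exon lengths used were 4.08 kb for Cd3e and 1.46 kb for Cd79a. Without them, Cd79a had 12.8 CPM and Cd3e 305.8 CPM in WT, and 4.87 and 297.4 CPM in KO. How much RNA a single B cell contributes is not known from these libraries, so these shares are not shares of cells.

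Within a group, the 9 genes did not all deviate in the same direction in any library. In WT replicate 1, 8 of the 9 genes lay above their WT mean of log2 CPM, against 3 in WT replicate 2 and 5 in WT replicate 3. The median deviations were 0.045, -0.085 and 0.0021 on the log2 scale. In the KO libraries 4, 6 and 4 genes lay above their KO mean. In KO replicate 1 the widest deviations were -0.46 for Pax5 and -0.41 for Cr2, and in KO replicate 2 they were 0.36 for Ebf1 and 0.31 for Pax5. In KO replicate 3 they were of opposite sign, 0.41 for Cr2 and -0.40 for Ebf1.

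Of 45 other genes of the B lineage in 5 lists, 42 could be tested, and 23 were called lower and 3 higher in KO, with a median log2 fold change of -0.46. Among all genes tested, 12.1% were called lower and 12% higher, which is the background for the counts by list that follow. Among B-cell defining genes outside the 9, the transcription factor gene Spib fell from 4.98 ± 0.432 to 1.56 ± 0.130 CPM (log2 fold change -1.67, edgeR adjusted p = 4.03e-07), and Fcrla, an intracellular Fc receptor-like protein, from 1.75 ± 0.251 to 0.545 ± 0.059 CPM (-1.67, edgeR adjusted p = 4.33e-05). These decreases lay within the range of the 9 genes. By contrast Pou2af1, a coactivator of octamer factors, showed a smaller decrease (16.5 ± 0.764 to 11.9 ± 0.453 CPM, log2 fold change -0.47, edgeR adjusted p = 9.46e-05), and Cd72, a B-cell coreceptor, had 32.6 ± 0.767 CPM in the WT and 32.3 ± 0.498 CPM in the KO libraries (-0.0097, edgeR adjusted p = 0.904). All errors here are SD with n = 3 per group.

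By role, 8 of 12 coreceptor and surface genes were lower and none was higher, with a median log2 fold change of -1.23. The 4 with the highest CPM of this list, Cd37, Cd72, Cxcr5 and Fcrl1, were the 4 that did not pass, at log2 fold changes of 0.025, -0.0097, 0.046 and -0.13. The summed level of this list was 407.0 to 423.4 CPM in WT and 401.1 to 405.4 CPM in KO. Most of this sum was Cd37, with a mean of 322.1 CPM in WT and 327.8 CPM in KO. The sum therefore says little about the 8 lower genes. Cd37 is a tetraspanin of leukocytes in general and Cxcr5 a chemokine receptor that T cells in follicles also carry. Of 10 genes of B-cell receptor signaling, 8 were lower, with a median of -0.61. Syk, the kinase next to Cd79a and Cd79b, was at -0.68 (edgeR adjusted p = 1.21e-05) and the adapter Pik3ap1 at -0.45 (edgeR adjusted p = 0.00057). Dapp1 was not called at -0.091, and Cd81, a tetraspanin of many cell types, was higher at 0.28 (edgeR adjusted p = 9.08e-05).

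Of 8 B-lineage transcription factors 5 were lower and 1 higher, with a median log2 fold change of -0.34. Ikzf3 (-0.033) and Pou2f2 (-0.069), both above 100 CPM in these libraries, were not called. Irf8 fell by 0.20 on the log2 scale (edgeR adjusted p = 0.00291), whereas Bach2, which T cells also use, rose from 124.8 ± 4.14 to 146.6 ± 3.61 CPM (SD, n = 3 per group, log2 fold change 0.23, edgeR adjusted p = 0.00045). Genes of later and earlier B-cell stages were called at shares near the 12.1% lower and 24.1% in either direction among all genes tested. Of the 7 tested genes of plasma and germinal center B cells, 1 was lower and 1 higher. The higher one was Bcl6 (0.34, edgeR adjusted p = 0.000108), a factor of germinal center B cells and of follicular T cells, while Prdm1 (-0.011), Derl3 (-0.20) and Sdc1 (-0.34) were not called. Of the 5 tested genes of early B cells, 1 was lower. Il7r (-0.081), Cd93 (-0.11), Dntt (-0.33) and Vpreb1 (-0.25) were not called, and Rag2, which immature B and T cells need for receptor assembly, had no count in any library. The lower gene of this list was Rag1, named after its values were seen, with only 18, 55 and 17 counts in WT and 0, 0 and 8 counts in KO.

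Immunoglobulin constant and MHC class II genes, which mature B cells also express, had median log2 fold changes of -0.91 and -0.57, beside -1.67 for the 9 genes. Of 6 immunoglobulin constant genes 5 were lower, among them Ighm (log2 fold change -0.41), Igkc (-1.15) and Ighd (-1.01), while Iglc2 at -0.74 was not called (edgeR adjusted p = 0.473). Of 9 MHC class II genes, which other antigen-presenting cells express as well, 7 were lower and 1 higher. Cd74 was at -0.46, H2-Ab1 at -0.96, H2-Ob at -0.14 and H2-DMa at 0.071, the last not called (edgeR adjusted p = 0.497).

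**Figure D4:**
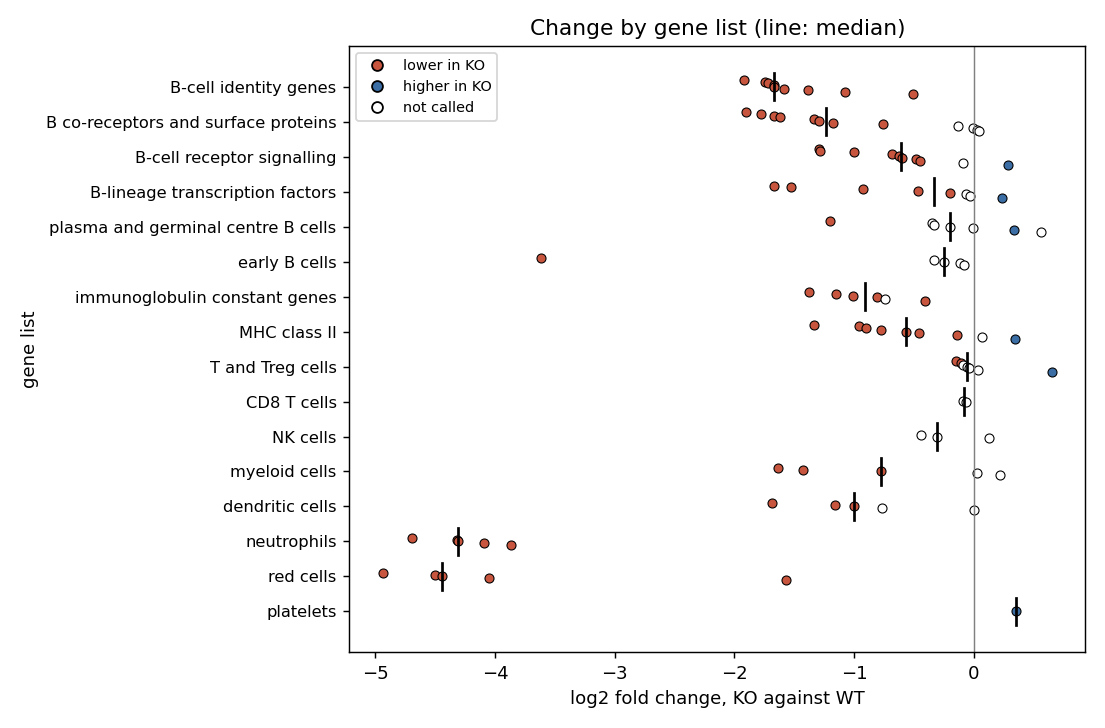
Log2 fold change of KO against WT for each tested gene by list, with a point for each gene, filled red if lower, blue if higher and white if not called at an adjusted p under 0.05, and a line at each list's median. The 9 B-cell identity genes have a median of -1.67, between the T and Treg genes (-0.054) and the neutrophil genes (-4.31).

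Of 29 markers of other cells in 7 lists, 26 could be tested, and 16 were called lower and 1 higher in KO. Among all genes tested, 12.1% were called lower. All 5 neutrophil genes were lower in KO, with a summed level of 16.7 to 22.1 CPM in WT and 0.857 to 1.17 CPM in KO. All 5 red cell genes were lower as well, from 36.5 to 43.4 CPM in WT and from 1.81 to 2.31 CPM in KO. The red cell sum in KO was 5.14% of its WT mean, where that of the 9 B-cell genes was 44.6%. Of 5 myeloid genes 3 were lower, with a sum of 35.3 to 39.7 CPM in WT and 22.0 to 23.6 CPM in KO. The macrophage genes Csf1r (log2 fold change 0.22, edgeR adjusted p = 0.0821) and Adgre1 (0.028) did not pass, and the granule and monocyte gene Lyz2 fell from 19.7 ± 1.78 to 7.36 ± 0.848 CPM (-1.43, edgeR adjusted p = 1.02e-07, SD, n = 3 per group). Of 5 dendritic cell genes 3 were lower, with sums of 5.85 to 6.76 CPM and 3.66 to 4.09 CPM. The 2 CD8 T-cell genes summed to 8.34 to 9.71 CPM in WT and 8.62 to 8.65 CPM in KO, and the 3 NK-cell genes to 7.45 to 7.60 CPM and 6.68 to 8.14 CPM. None of these 5 genes passed. Of 4 platelet genes, 1 could be tested and was higher, and Gp9, named after its values were seen, had no count in the KO libraries. The part of these cells in the decrease of the B-cell genes was not tested. That of the difference in Xist cannot be told apart from the deletion of Zfp335, since both part the same libraries.

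Among the 11954 genes of sufficient level outside all of these lists, the 5 with the profile most like the B-cell genes over the 6 libraries were Wdr47, Pcbd2, Tmprss13, Bcar3 and Cnpy2. Likeness was the distance between log2 CPM profiles, each centered on its own mean, and the median profile of the 9 genes, and it was 0.241, 0.249, 0.271, 0.296 and 0.301 for these genes. Of the 9 genes themselves, Cd79a was nearest to that profile, at 0.201, and Cd79b farthest, at 1.25. The log2 fold changes of the 5 other genes were, in the same order, -1.66, -1.41, -1.42, -1.43 and -1.34. Pcbd2 was at 11.4, 10.9 and 11.8 CPM in WT and 4.46, 4.16 and 4.21 CPM in KO, and Cnpy2 at 33.5, 28.9 and 27.3 CPM in WT and 11.1, 11.8 and 12.4 CPM in KO. Lower levels in KO were fixed by this choice, since the median profile of the 9 genes is itself lower in KO.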

How the data were processed

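The authors deposited 1 table of gene counts, not normalized, with a column for each of the 6 libraries. The submitters' processing notes name mm10, HISAT2 and DESeq2, and the counting program and its strand setting are not given in the sources used here. Of the 32285 rows, 40 repeat a symbol, and the row with most counts kept the name. Counts of 1 and 2 (620 and 1045 entries) were rarer than counts of 4 (2579 entries), so the depth in independent fragments is not known and no counting intervals are given. Replicate pairs differed with a chi-square per gene of at least 8.62. Because the depth in independent fragments is not known, this value cannot show a spread beyond counting noise. All 6 were kept as separate libraries. Genes kept by filterByExpr (17307) were fitted in R 4.3.3 with edgeR 4.0.16, using TMM scaling, the quasi-likelihood F-test with robust dispersions, and Benjamini-Hochberg adjustment over all of them; standard errors come from the F statistic. The procedure was tested on simulated data with known changes. It called 90.9% of genes simulated at a log2 fold change of -2 and 67.3% of those at -1. At 1 and 2 it called 82% and 88%. Of its calls, 5.95% were false, at an adjusted p threshold of 0.05. Log2 CPM used a prior count of 2. Alternatives were RLE, upper-quartile and no scaling factors, other filters, DESeq2 1.42.0, limma-voom (limma 3.58.1), the legacy edgeR method, the replicate number as a block, each library left out, abundant gene families left out, counts divided by 4, and the study's cutoffs. Positions, exon lengths and 50-base stretches come from the GENCODE annotation of GRCm38 (mm10), promoters from RefSeq. The 9 genes and all lists were chosen with earlier results of these data known. The text names the 9 genes, Zfp335, Xist, Cd3e, defining markers, at most 4 genes of highest mean CPM per list, the 5 nearest profiles, and genes that overlap or share sequence with a named one. The values of 1 defining marker are not reported here.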

Additional observations from a re-analysis of the deposited data

How the results depend on the processing

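All 9 B-cell genes were called lower in KO under each alternative at an adjusted p under 0.05, the 6 fits that each left out 1 library included. Only with the study's cutoffs (1.5-fold, with p below 0.05 and its adjusted value below 0.1) were 8 called, because Cd79b, at -0.51, changed by less than 1.5-fold. With 1 library left out, the log2 fold change ranged from -2.08 to -1.73 for Pax5, from -1.96 to -1.56 for Ebf1, from -1.46 to -1.34 for Cd79a and from -0.55 to -0.46 for Cd79b. Over all genes 4170 were called, 2088 of them lower. The study's cutoffs gave 1203, of which 757 were lower, and the fits that left out 1 library gave between 2740 (without WT replicate 2) and 4996. Without scaling factors 61.4% of the calls were lower, against 50.1%, and the median log2 fold change shifted by -0.031. The 23 other B-lineage genes called lower numbered 19 to 24 under the alternatives. With the replicate number as a block, 4227 genes were called and the log2 fold changes of the 9 genes stayed negative and past the threshold. For WT and KO libraries of the same number, deviations from the group mean correlated at 0.0082 to 0.033 over genes. For libraries of different numbers the correlations were -0.037 to 0.019. With so few libraries per group, these values cannot decide whether the libraries were paired. The depth in independent fragments is not known, which limits Ebf1, Cr2 and other genes of low counts.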
